A study of Mus musculus with 8 samples.

Results

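Prostaglandins are signalling lipids made from arachidonic acid, and the RNA of the genes that make, sense and remove them was examined in mouse liver myofibroblasts treated with an inhibitor of O-GlcNAc transferase (OGT), the enzyme that attaches the sugar GlcNAc to proteins inside the cell. The 10 genes, namely Ptgs1, Ptgs2, Ptges, Ptgis, Ptgds, Ptger1, Ptger2, Ptger4, Ptgfr and Hpgd, were picked by symbol out of 40840 genes in the per-library tables. The cells were primary hepatic stellate cells in the myofibroblastic (MF) state, termed pMF-HSCs, from wild-type male C57BL/6J mice aged 15 to 18 weeks, which activate by themselves over 7 days on plastic in medium with 5% serum. The Control group received the solvent DMSO and the OGTi group OSMI-1 at 50 µM, both for 24 h, with 4 libraries in each group that come from 4 independent experiments and are paired by replicate number. Only this inhibitor at this dose was applied in these libraries, and the cells had been sorted by the autofluorescence of retinol, the vitamin A that quiescent stellate cells store.

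The cyclooxygenases encoded by Ptgs1 (COX-1) and Ptgs2 (COX-2) turn arachidonic acid, released from membranes by phospholipases A2, into the unstable intermediate PGH2. Terminal synthases then convert PGH2 into PGE2 (Ptges), prostacyclin (Ptgis), PGD2 (Ptgds) or thromboxane, which leave the cell and act on G protein-coupled receptors. Among the receptors for PGE2, EP2 (Ptger2) and EP4 (Ptger4) raise cAMP, EP3 (Ptger3) lowers it and EP1 (Ptger1) acts through calcium, while Ptgfr encodes the receptor for PGF2α and Hpgd the dehydrogenase that inactivates prostaglandins. In the liver, stellate cells and macrophages are known sources of PGE2, and EP receptors on stellate cells are known to modulate their activation.

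In the pMF-HSCs, EP4 was the only member whose RNA passed the test after OGTi, with a 5.33-fold rise that was uneven between pairs and a call that was lost in 4 of 13 alternative analyses, among them those without replicate 3 and without replicate 4. The cyclooxygenases, the synthases for PGE2 and prostacyclin, and the other PGE2 receptors did not pass, and the RNAs for the PGD2 synthase, the PGF2α receptor and the inactivating dehydrogenase were close to or below detection. Of the 10 members, 9 held enough counts to be tested, 1 was called higher and 0 were called lower in OGTi (edgeR quasi-likelihood test with replicate number as block, called at 0.05 or less after Benjamini-Hochberg adjustment over 19963 genes). The background was 8.13% of all tested genes called higher, 10.2% called lower and 18.4% called in either direction, so that 1 call among 9 members was near the share among genes at large. At an unadjusted p under 0.05, 1 member was lower (Ptges) and 1 higher (Ptger4), beside 17.5% and 14.3% of all genes tested. DESeq2 called 0 members lower, where it called 14.4% of its tested genes lower. The median log2 fold change was -0.36 over the 9 members and 0.01 over all genes tested, with 7 members below 0 and 2 above.

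Libraries held between 30068876 and 37372420 expected counts, the number of reads RSEM assigns to each gene. Libraries that stood apart were Control replicate 4, with 259 genes at least 4-fold below the rest of its group, OGTi replicate 1, with 220 such genes, and OGTi replicate 4, with 216 genes at least 4-fold above. The other libraries had at most 29 genes below and 36 above. In OGTi replicate 1 the shortest genes were shifted up (median 0.55 on the log2 scale against its group) and the longest down (-0.46). For the labelled cell type, 13 stellate cell and myofibroblast markers summed to between 4780 and 8867 TPM in Control and between 4122 and 9877 TPM in OGTi. Some single markers differed between experiments. Lum was at 61.83, 34.14, 390.64 and 558.65 TPM in Control replicates 1 to 4, and Col1a2 at 28.47, 44.08, 143.5 and 157.36 TPM. Lum was at 50.5, 39.36, 458.76 and 631.21 TPM in OGTi replicates 1 to 4. Des, in contrast, lay between 121.59 and 147.18 TPM in Control. The part of such differences in the prostaglandin results was not tested. TPM is scaled for transcript length as well as library size, so it served here to compare levels between genes, whereas differences between groups were tested on counts.

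Promoter windows of 300 bases are shown, for the receptor that rose and for the cyclooxygenase pair, because these genes carry most of what follows. They are RefSeq sequences, from 250 bases before to 50 bases from the start annotated in RefSeq, printed 5′ to 3′ along the gene. The table they come from is on the GRCm38.p6 build, and each sequence was found once, without mismatch, on GRCm39, at chr15:5273619-5273918 (minus strand, Ptger4), chr1:149975532-149975831 (plus strand, Ptgs2) and chr2:36120188-36120487 (plus strand, Ptgs1). Capitals mark matches to any of the motifs searched for.
Ptger4: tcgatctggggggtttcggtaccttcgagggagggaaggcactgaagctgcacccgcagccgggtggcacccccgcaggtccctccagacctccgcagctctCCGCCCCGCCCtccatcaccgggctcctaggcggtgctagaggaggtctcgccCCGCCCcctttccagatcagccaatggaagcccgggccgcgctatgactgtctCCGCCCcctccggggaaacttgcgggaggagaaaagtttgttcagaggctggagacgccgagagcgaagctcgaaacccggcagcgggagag
Ptgs2: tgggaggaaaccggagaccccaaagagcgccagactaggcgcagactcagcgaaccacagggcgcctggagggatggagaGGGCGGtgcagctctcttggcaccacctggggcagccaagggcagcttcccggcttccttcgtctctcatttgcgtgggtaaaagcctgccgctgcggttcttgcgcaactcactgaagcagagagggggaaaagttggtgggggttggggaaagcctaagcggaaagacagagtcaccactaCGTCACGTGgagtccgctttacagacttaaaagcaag
Ptgs1: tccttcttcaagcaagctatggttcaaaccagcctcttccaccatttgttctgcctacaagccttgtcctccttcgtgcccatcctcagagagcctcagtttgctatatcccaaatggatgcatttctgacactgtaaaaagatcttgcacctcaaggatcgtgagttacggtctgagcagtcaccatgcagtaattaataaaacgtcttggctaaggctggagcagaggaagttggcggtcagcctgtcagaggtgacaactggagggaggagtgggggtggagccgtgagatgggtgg
The motifs, searched on both strands, were the cAMP response element (CRE) TGACGTCA and its shorter form CGTCA, the AP-1 site TGANTCA, the TEAD site GGAATG, the E-box CACGTG, the GC box GGGCGG and the TATA box TATAAA. The Ptger4 window held 4 GC box matches, all on the opposite strand, with their leftmost bases at positions -148, -143, -95 and -42 from the start, the first pair sharing a base. The Ptgs2 window held the short CRE motif at position 14, which overlaps an E-box at position 17, and a GC box at -170. Positions count from the RefSeq start of the window. For Ptgs2 the whole window lies inside the GENCODE vM39 gene interval, which begins at 149975194, so its RefSeq start is downstream of that one. The Ptgs1 window held none of the 7. The GC content was 67.0% for Ptger4, 59.3% for Ptgs2 and 50.7% for Ptgs1, against a median of 53.0% over 32544 windows of the same length. Of these windows, 35.9% held a GC box, 20.9% the short CRE motif, 7.17% the E-box, 1.80% the full CRE, 7.79% an AP-1 site, 14.6% a TEAD site and 13.6% a TATA box. Windows were found for 8 of the 10 members. Among these 8, a GC box was found in 5, and the short CRE motif, the E-box, the AP-1 site (Ptgds), the TEAD site (Ptges) and the TATA box (Hpgd) in 1 each. A match of letters is not evidence that a factor binds there.

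Levels differed between the members by several orders of magnitude, and Ptgs2 led in both groups. In Control, mean TPM was 417.2 ± 158.2 for Ptgs2, 87.1 ± 25.2 for Ptgs1, 43.9 ± 16.9 for Ptgis, 19.8 ± 2.05 for Ptger2, 2.12 ± 1.17 for Ptges, 1.33 ± 0.33 for Ptger1 and 0.763 ± 0.429 for Ptger4 (SD, n = 4). The ranges of Ptgs1 and Ptgis overlapped in Control, as did those of Ptges and Ptger1 and those of Ptger1 and Ptger4, so that these neighbours were not separated by more than their spread, although Ptgs1 was above Ptgis and Ptger1 above Ptger4 within each of the 4 Control libraries. In OGTi the order of the first 4 was kept, with 234.9 ± 162.1, 58.8 ± 22.4, 26.2 ± 4.30 and 13.7 ± 4.71 TPM (SD, n = 4), although the ranges of Ptgs2 and Ptgs1 then overlapped. Below them the order of the means changed, with Ptger4 ahead of Ptger1 and Ptges, at of 3.84 ± 2.69, 1.52 ± 0.579 and 0.883 ± 0.397 TPM (SD, n = 4), respectively. The range of Ptger4 overlapped with both, and it was above Ptger1 in only 2 of the 4 OGTi libraries.

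Ptgs1, on chromosome 2 (36120438 to 36142287 on GRCm39, GENCODE vM39), encodes the cyclooxygenase that most cells make at all times. It was at 62.68, 115.83, 100.39 and 69.58 TPM in Control replicates 1 to 4 and at 33.88, 80.08, 75.19 and 46.24 TPM in OGTi replicates 1 to 4. Each OGTi library was thus below its own control, while the groups overlapped. In scaled counts, which are adjusted by TMM for depth and composition, the means were 5984 ± 1736 in Control and 4965 ± 1549 in OGTi (SD, n = 4). The log2 fold change was -0.28 ± 0.19 (SE) and did not pass (edgeR adjusted p = 0.346). On TPM the difference was larger, and limma-trend on log2(TPM + 1) called Ptgs1 lower (-0.60, adjusted p = 0.0289), as it did 17.3% of all genes. On that scale the median of all genes was itself at -0.10.

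Ptgs2, on chromosome 1 (149975194 to 149983978), encodes the inducible cyclooxygenase and was the most abundant member. Its TPM in Control replicates 1 to 4 was 592.18, 255.03, 315.85 and 505.84, and in OGTi replicates 1 to 4 it was 23.62, 212.43, 295.35 and 408.18. The OGTi library of replicate 1 stood far below all others, and the other 3 OGTi libraries lay within the Control range or just under it. Scaled counts averaged 36239 ± 13954 in Control and 24696 ± 17269 in OGTi (SD, n = 4), which the model gave as -0.78 ± 0.62 (SE) on the log2 scale (edgeR adjusted p = 0.438). The log2 differences within pairs 1 to 4 were -4.11, -0.16, 0.28 and -0.02, so the fall came from pair 1. Without that pair the log2 fold change was 0.036 (edgeR adjusted p = 0.909).

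The low value in OGTi replicate 1 coincided with the shift by gene length in this library. The 1440 genes with a length of 4000 to 5000 bases, the class that holds Ptgs2 (4460 bases), had a median of -0.68 on the log2 scale in OGTi replicate 1 against the rest of its group, and between 0.08 and 0.14 in the other OGTi libraries. Ptgs2 itself was at -3.43 in that library. With the trend on length removed the log2 fold change over the 4 pairs was -0.64. The part of gene length and of other features of this library in its Ptgs2 value was not tested.

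The balance of the cyclooxygenases was also read within each library. The ratio of Ptgs2 to Ptgs1 TPM was 9.45, 2.20, 3.15 and 7.27 in Control replicates 1 to 4. It was 0.697, 2.65, 3.93 and 8.83 in OGTi replicates 1 to 4. Ptgs2 therefore exceeded Ptgs1 in 7 of the 8 libraries, and in replicates 2 to 4 the ratio was slightly higher in OGTi than in its control, while the TPM of both genes was lower. OGTi replicate 1 was the exception on both counts.

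**Figure D1:**
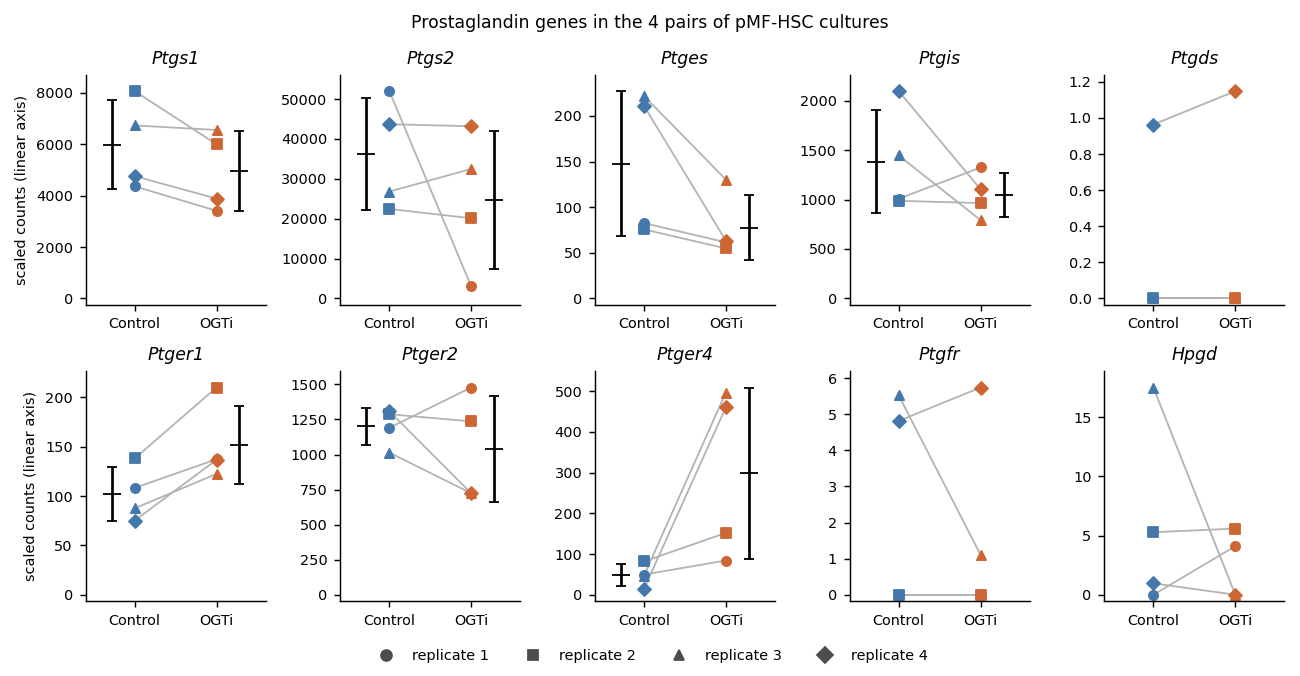
Scaled counts (expected counts adjusted by TMM, linear axis) of the 10 prostaglandin genes in Control and OGTi, with lines joining the libraries of 1 replicate number and the mean ± SD (n = 4) beside the points for the 7 genes that were not close to the detection limit. Ptger4 was higher in OGTi in all 4 pairs, with values of 496.6 and 460.6 in replicates 3 and 4, whereas Ptgs2 fell steeply in replicate 1 and not in the others.

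Ptges, on chromosome 2 (30779483 to 30820196, minus strand), encodes microsomal PGE synthase-1, the inducible enzyme usually coupled to COX-2. It was low, at 1.16, 1.06, 3.24 and 3.02 TPM in Control replicates 1 to 4 and at 0.6, 0.72, 1.47 and 0.74 TPM in OGTi replicates 1 to 4. These values rest on 86 to 241 counts per library in Control and 49 to 118 in OGTi, and the gene overlaps the annotated gene Gm13400 on the same strand. Every pair was lower in OGTi, and the groups overlapped. Scaled counts were 147.8 ± 79.5 in Control and 77.4 ± 35.4 in OGTi (SD, n = 4). The fitted log2 difference was -0.85 ± 0.32 (SE), with an unadjusted p of 0.0231 and an edgeR adjusted p of 0.0937. It was called lower when libraries were scaled by their totals alone (-1.05, adjusted p = 0.0479), a scaling that puts the median of all genes at -0.19 and calls 14.6% of them lower.

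Ptgis, on chromosome 2 (167033725 to 167083018, minus strand), encodes prostacyclin synthase. Control replicates 1 to 4 had 31.38, 30.76, 46.78 and 66.64 TPM, and OGTi replicates 1 to 4 had 28.59, 27.97, 19.79 and 28.53 TPM. The OGTi libraries were all below the lowest Control library in TPM, but not in scaled counts, where OGTi replicate 1 (1325) exceeded Control replicates 1 and 2 (1008 and 988). The means were 1385 ± 521 and 1047 ± 225 scaled counts (SD, n = 4), and the fitted log2 difference of -0.36 ± 0.27 (SE) did not pass (edgeR adjusted p = 0.406). The fall was seen in replicates 3 and 4 and not in replicate 1.

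Ptgds, on chromosome 2 (25352795 to 25362601, minus strand), encodes the lipocalin-type PGD2 synthase. A count of 1 was found in Control replicate 4 and in OGTi replicate 4 and none elsewhere, so the gene was not tested. A count of 0 in these libraries allows for up to 3 counts, or between 0.0803 and 0.0998 CPM, a limit that covers counting error only. At this depth Ptgds was not detectable above that limit in either group.

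Ptger4, on chromosome 15 (5236142 to 5273673, minus strand), encodes EP4. In Control replicates 1 to 4 it was at 0.78, 1.28, 0.76 and 0.23 TPM, or 54, 93, 51 and 15 counts. In OGTi replicates 1 to 4 it was at 0.91, 2.21, 6.24 and 6.0 TPM, or 82, 136, 450 and 401 counts. Every OGTi library was above its own control, and OGTi replicates 3 and 4 stood well above all the rest. In scaled counts the groups did not overlap, which held for 11.5% of all genes tested in this direction. Control libraries had 49.5, 81.8, 47.0 and 14.5 scaled counts, and OGTi libraries 84.0, 151.9, 496.6 and 460.6. In TPM they did overlap, since OGTi replicate 1 (0.91) was below Control replicate 2 (1.28).

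The mean of Ptger4 went from 48.2 ± 27.5 to 298.3 ± 210.6 scaled counts (SD, n = 4). The fitted log2 fold change was 2.41 ± 0.66 (SE) and passed (edgeR adjusted p = 0.0306). The rise was far larger in some pairs than in others, with log2 differences of 0.75, 0.88, 3.37 and 4.90 in pairs 1 to 4. The largest was in the pair of Control replicate 4, the library that was low for many genes and in which Ptger4 was at -1.71 on the log2 scale against its group. Its partner OGTi replicate 4 also stood apart, with 216 genes at least 4-fold above its group and 23746 genes detected against 19035 to 20293 in the other libraries, and Ptger4 was there at 1.59 against its group. The part of these libraries in the rise was not tested beyond leaving out the pair. The call was kept in 9 of 13 alternative analyses. It was lost without replicate 3 (log2 fold change 1.99, adjusted p = 0.114), without replicate 4 (1.67, adjusted p = 0.0939) and on TPM with limma-trend (1.29, adjusted p = 0.0785, and 2.01, adjusted p = 0.0702, with 1 and 0.1 added before the log). It was kept without replicate 1 (3.03, adjusted p = 0.0312) and without replicate 2 (3.06, adjusted p = 0.029), and the direction was upward in each of the 13.

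Ptger2, on chromosome 14 (45225652 to 45241277), encodes EP2 and was the main PGE2 receptor RNA of these cells. It was at 19.5, 21.11, 17.04 and 21.57 TPM in Control replicates 1 to 4 and at 16.7, 18.67, 9.5 and 9.81 TPM in OGTi replicates 1 to 4. Each pair was lower in OGTi in TPM, most clearly in replicates 3 and 4. In scaled counts replicate 1 went the other way, from 1191 to 1478. The means were 1200 ± 135 and 1040 ± 379 scaled counts (SD, n = 4), and the log2 fold change of -0.27 ± 0.25 (SE) did not pass (edgeR adjusted p = 0.501).

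Ptger1, on chromosome 8 (84393264 to 84399384), encodes EP1. It was at 1.35, 1.79, 1.15 and 1.04 TPM in Control replicates 1 to 4 and at 1.03, 2.32, 1.17 and 1.56 TPM in OGTi replicates 1 to 4. In TPM the groups overlapped and pair 1 was lower in OGTi, while in scaled counts all 4 pairs were higher, from 102.2 ± 27.5 to 151.6 ± 39.5 (SD, n = 4). The log2 fold change was 0.57 ± 0.26 (SE), which did not pass (edgeR adjusted p = 0.167). RSEM assigned Ptger1 reads to transcripts of different lengths, which enters TPM and not counts, with a mean of 3781 to 4090 bases in Control and 3729 to 4664 bases in OGTi.

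Ptger3, which encodes EP3 and belongs to the other receptors described further on, was added to give the whole set of PGE2 receptor genes. The summed TPM of the 4 receptor genes lay between 18.6 and 24.9 in all libraries, at 22.1, 24.6, 20.1 and 23.1 in Control replicates 1 to 4 and 19.9, 24.9, 18.6 and 21.6 in OGTi replicates 1 to 4. Their make-up differed from Control mainly in OGTi replicates 3 and 4. Ptger2 accounted for 88.3%, 85.7%, 84.8% and 93.4% of the sum in Control and for 84.1%, 74.98%, 51.0% and 45.4% in OGTi. The share of Ptger4 was 3.53%, 5.19%, 3.78% and 0.996% in Control and 4.58%, 8.88%, 33.5% and 27.8% in OGTi. That of Ptger3 was 2.04%, 1.87%, 5.72% and 1.13% in Control and 6.10%, 6.83%, 9.23% and 19.6% in OGTi. The shares of Ptger4 overlapped between groups. Those of Ptger2 and Ptger3 were apart by narrow gaps only, 84.8% in Control replicate 3 against 84.1% in OGTi replicate 1 for Ptger2. For Ptger3 the gap was 5.72% against 6.10% in the same libraries. This measure has no counterpart over all genes to set beside it. In replicates 3 and 4 of OGTi, Ptger2 made up about as much of the sum as the other receptors together. These shares are given as a description without a test.

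**Figure D2:**
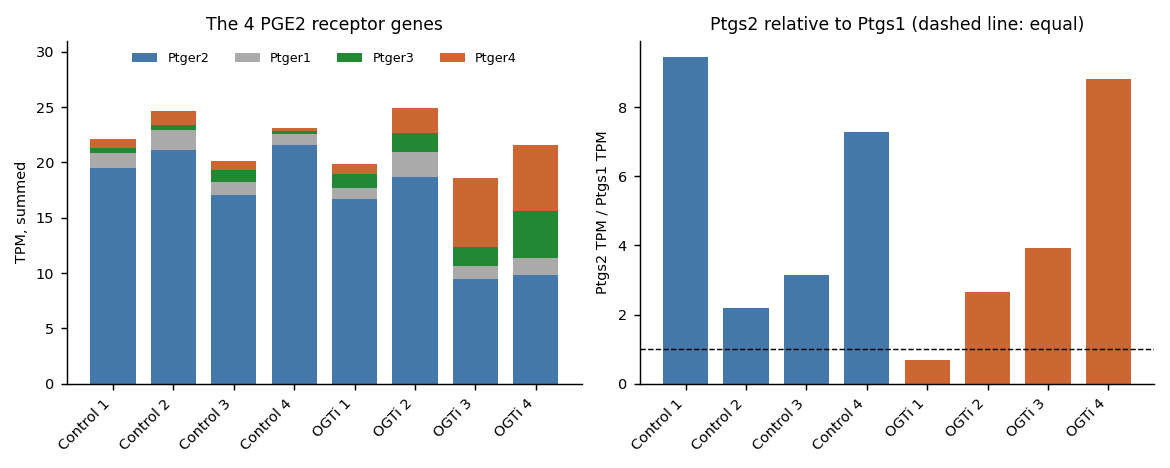
Left, summed TPM of the 4 PGE2 receptor genes in each library, divided by gene. Right, the ratio of Ptgs2 to Ptgs1 TPM in each library, with a dashed line at equality. The receptor sum stayed between 18.6 and 24.9 TPM while the Ptger4 share reached 33.5% in OGTi replicate 3, and the cyclooxygenase ratio fell below 1 in OGTi replicate 1 alone.

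Ptgfr, on chromosome 3 (151502139 to 151543267, minus strand), had 0, 0, 6 and 5 counts in Control replicates 1 to 4 and 0, 0, 1 and 5 in OGTi replicates 1 to 4. Hpgd, on chromosome 8 (56747543 to 56774082), had 0, 6, 19 and 1 counts in Control replicates 1 to 4 and 4, 5, 0 and 0 in OGTi replicates 1 to 4. Both were thus near the limit of 3 counts per library, and most of the Hpgd counts came from Control replicate 3. Their log2 fold changes, -0.74 ± 1.65 (SE) for Ptgfr and -0.77 ± 1.76 (SE) for Hpgd, did not pass (edgeR adjusted p = 0.812 and 0.815) and turned positive without replicate 3 (0.21 and 0.74). A difference in either gene was not detectable at this depth.

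**Figure D3:**
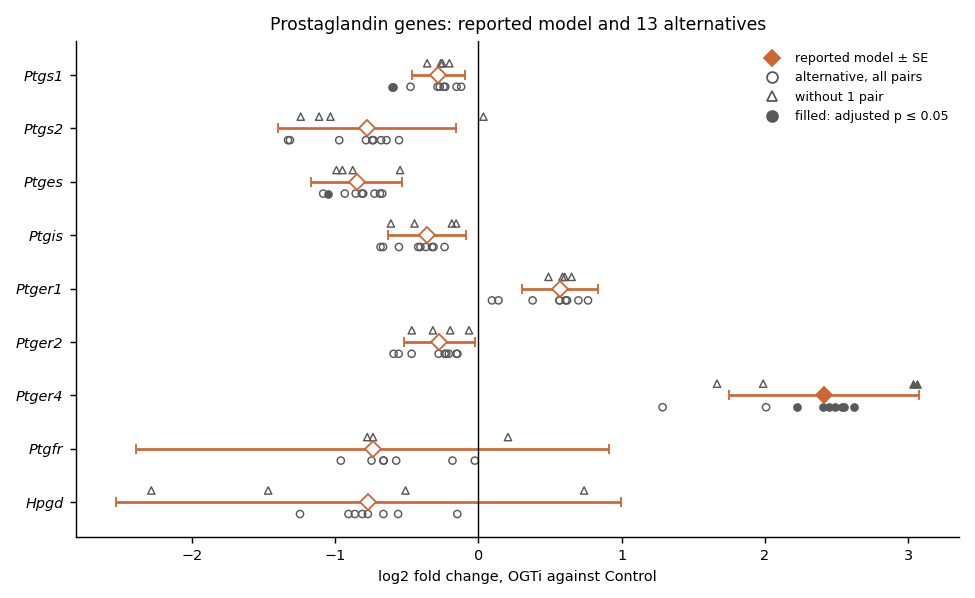
Log2 fold change of OGTi against Control for the 9 members tested, with the reported model and its SE (diamonds), alternative analyses of all pairs (circles) and fits without 1 pair (triangles). Filled symbols passed an adjusted p of 0.05. Ptger4 lay to the right of 0 under every setting shown, and Ptgs2 crossed 0 without replicate 1.

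Across pairs the members did not move as a unit. Ptgs1 and Ptges were lower and Ptger1 and Ptger4 higher in all 4 pairs in scaled counts, which held for 21.5% and 19.4% of all genes tested, respectively. Ptgis, Ptger2 and Ptger4 changed most in replicates 3 and 4, whereas Ptgs2 changed in replicate 1. In bulk RNA, fewer cells of a type and less RNA per cell cannot be told apart. The edgeR p-values set the OGTi effect against the spread of the within-pair differences over these 4 experiments, after the block removed each experiment's own level. The estimate of that spread borrows from all genes.

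The rest of the prostaglandin pathway was followed through 7 lists that hold 74 symbols, of which 73 were in the tables and 63 were tested. Of these, 16 were called higher and 5 lower in OGTi, with a median log2 fold change of 0.48 (edgeR with the block). Among all genes tested, 8.13% were called higher and 10.2% lower, so that the share of lower calls among the 63 was not above that of genes at large. The calls were most numerous in the list of genes known to respond to cAMP (7 higher and 1 lower of 14). The lists were chosen with earlier results of these data known, so the counts describe them and are no test of them. Of the 21 called genes, 15 kept their call under all 13 alternatives and 0 reversed.

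Of 16 phospholipase A2 genes, the enzymes that release arachidonic acid, 10 were tested, 2 were called higher and 1 lower, with a median log2 fold change of 1.17. The abundant one fell. Pla2g4a, which encodes the cytosolic phospholipase A2α, was at 87.59, 119.02, 78.78 and 60.22 TPM in Control replicates 1 to 4 and at 17.58, 64.14, 42.39 and 25.37 TPM in OGTi replicates 1 to 4. Its log2 fold change was -1.01 ± 0.24 (SE, edgeR adjusted p = 0.0173), and the call was lost without the replicate block (-0.94, adjusted p = 0.082), without replicate 2 (-1.06, adjusted p = 0.0523) and without replicate 4 (-1.01, adjusted p = 0.0624). Pla2g4b (2.29 ± 0.40, adjusted p = 0.00373) and the secreted enzyme Pla2g3 (3.70 ± 0.96, adjusted p = 0.0241) rose, yet reached at most 0.8 and 1.29 TPM in OGTi. Pla2g3 had 0, 13, 0 and 11 counts in Control replicates 1 to 4. Its log2 fold change was 3.02 without replicate 1 (adjusted p = 0.0791) and 2.98 without replicate 3 (0.0553), where it was not called, and 4.63 and 4.59 without replicates 2 and 4. Pla2g6, the calcium-independent enzyme and the next in abundance, had a log2 fold change of -0.26 ± 0.22 (adjusted p = 0.455).

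Among the 9 other synthases, 2 were called higher and 1 lower, with a median of 0.56. Tbxas1, the thromboxane synthase, fell from 12.16, 8.44, 20.43 and 20.05 TPM in Control replicates 1 to 4 to 2.96, 5.7, 2.6 and 1.86 TPM in OGTi replicates 1 to 4. Its log2 fold change was -1.98 ± 0.36 (SE, edgeR adjusted p = 0.00439), and the groups did not overlap, which held for 12.0% of all genes tested in the downward direction. Akr1c18, an aldo-keto reductase, rose by 2.93 ± 0.42 (adjusted p = 0.00156) from at most 0.69 TPM in Control to between 1.63 and 3.27 TPM in OGTi. Prxl2b, also named prostamide/prostaglandin F synthase, rose by 0.73 ± 0.21 (adjusted p = 0.0357), a call that was kept in only 4 of 13 alternatives. The 2 genes with the highest mean TPM over the 8 libraries did not pass. Akr1b3, an aldose reductase, had a log2 fold change of 0.56 ± 0.27 (adjusted p = 0.186). The cytosolic PGE synthase Ptges3 had one of 0.18 ± 0.21 (adjusted p = 0.618).

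Of the 6 other receptor genes 5 were tested, and Ptger3 was the 1 called. It was at 0.45, 0.46, 1.15 and 0.26 TPM in Control replicates 1 to 4 and at 1.21, 1.7, 1.72 and 4.24 TPM in OGTi replicates 1 to 4, and the groups did not overlap, as for 11.5% of all genes tested in this direction. The log2 fold change was 2.29 ± 0.53 (SE, edgeR adjusted p = 0.0142), and the call was lost without replicate 4 (1.70, adjusted p = 0.0504) and on log2(TPM + 1) with limma-trend (adjusted p = 0.0574). Ptgdr2, a receptor for PGD2, had a log2 fold change of 0.25 ± 0.37 (adjusted p = 0.702). The median of the list was -0.76, of the opposite sign to Ptger3.

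Of 5 transport and inactivation genes tested 0 were called, 0 had an unadjusted p under 0.05 and DESeq2 called 0, with a median log2 fold change of 0.02. Over all genes tested these shares were 18.4%, 31.8% and 28.2%, and 0 calls among 5 genes is no result about this list. Slco2a1, which encodes the prostaglandin transporter, was abundant, at 93.0, 122.14, 116.92 and 178.73 TPM in Control replicates 1 to 4 and 38.01, 138.39, 100.76 and 171.62 TPM in OGTi replicates 1 to 4. Its log2 fold change was -0.02 ± 0.22 (edgeR adjusted p = 0.965). That of Ptgr1, a prostaglandin reductase, was 0.25 ± 0.24 (adjusted p = 0.541). Thus transporter and reductase RNAs were present where Hpgd was barely detected.

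In the leukotriene and lipoxygenase arm, which competes for arachidonic acid, 10 of 13 genes were tested, 2 were called higher and 1 lower, with a median of -0.17. Alox8 rose from 0.1, 0.06, 0.0 and 0.02 TPM in Control replicates 1 to 4 (7, 4, 0 and 1 counts) to 2.21, 1.58, 1.86 and 1.76 TPM in OGTi replicates 1 to 4, with a log2 fold change of 5.81 ± 0.59 (SE, edgeR adjusted p = 0.000337). Aloxe3, the epidermal lipoxygenase 3, rose by 2.45 ± 0.57 (adjusted p = 0.0144) and reached 13.54 and 19.3 TPM in OGTi replicates 3 and 4 against at most 2.38 TPM in Control. OGTi replicates 1 and 2 had 2.0 and 5.89 TPM of Aloxe3, the first of these within the Control range. Its value was 3.14 without replicate 1 and 1.86 without replicate 3 (adjusted p = 0.00583 and 0.0461). It was not called without replicate 4 (2.08, adjusted p = 0.0879) or with limma-trend on TPM (adjusted p = 0.0635 and 0.0507 with 1 and 0.1 added). Cysltr1, a cysteinyl leukotriene receptor, fell (log2 fold change -3.77 ± 0.76, adjusted p = 0.00759), from 26 to 49 counts per library in Control to at most 4 in OGTi, and its value was -3.18 without replicate 2. Lta4h, the leukotriene A4 hydrolase and the most abundant of the list, had a log2 fold change of -0.22 ± 0.20 (adjusted p = 0.487).

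All 14 genes of the cAMP and CREB target list were tested, and 7 were called higher and 1 lower, beside 8.13% and 10.2% of all genes tested, with a median log2 fold change of 1.58. This list too was chosen with earlier results of these data known. EP2 and EP4 act through cAMP, yet the listed genes also respond to many other stimuli. Nr4a1, an orphan nuclear receptor, was at 6.36, 5.54, 10.32 and 17.65 TPM in Control replicates 1 to 4 and at 31.25, 30.77, 93.22 and 188.71 TPM in OGTi replicates 1 to 4 (log2 fold change 3.15 ± 0.26, edgeR adjusted p = 0.000201). The highest values of Nr4a1 were in OGTi replicates 3 and 4, the latter being the library with many genes above its group. The same held for Ptger4, and also for Gem, Egr1, Zfp36 and Aloxe3, so it is not particular to these 2 genes. A link between Ptger4 and the listed genes was not tested. Its relatives Nr4a3 (3.91 ± 0.36, adjusted p = 0.000242) and Nr4a2 (1.5 ± 0.46, adjusted p = 0.0465) also rose, the latter with a call kept in 6 of 13 alternatives. Areg, an EGF receptor ligand, rose by 3.45 ± 0.55 (adjusted p = 0.0026), Rgs2, a regulator of G protein signalling, by 2.31 ± 0.38 (adjusted p = 0.003), the small GTPase Gem by 2.05 ± 0.36 (adjusted p = 0.004) and Fos, an AP-1 subunit, by 1.67 ± 0.21 (adjusted p = 0.000876). Without replicate 4, the pair of libraries that stood apart, the value of Areg was 2.82 (adjusted p = 0.00806).

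The 1 gene of that list called lower was Pde4b, a phosphodiesterase that degrades cAMP. It fell from 43.81, 30.24, 55.99 and 71.73 TPM in Control replicates 1 to 4 to 5.07, 9.86, 7.26 and 6.75 TPM in OGTi replicates 1 to 4, with a log2 fold change of -2.39 ± 0.27 (SE, edgeR adjusted p = 0.000503). The OGTi libraries were all below the lowest Control library, a lack of overlap seen downward in 12.0% of all genes tested. The most abundant gene of the list, the phosphatase gene Dusp1, did not pass (1.66 ± 0.69, adjusted p = 0.127), with 16.28 TPM in Control replicate 4 and between 498.62 and 519.14 TPM in the other Control libraries. Control replicate 4 was thus low for Dusp1 as well as for Ptger4. Crem, a CREB family gene and the next uncalled gene in abundance, had a log2 fold change of -0.0039 ± 0.21 (adjusted p = 0.993). The other 4 uncalled genes, Sik1, Pde4d, Pde10a and Per1, had values of -0.02, 0.17, 0.14 and 0.77.

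Among 10 known regulators of Ptgs2 and Ptges, 2 were called higher and 1 lower, with a median of 0.49. Egr1, a transcription factor known to act on the Ptges promoter, was at 181.75, 70.68, 149.67 and 68.18 TPM in Control replicates 1 to 4 and at 246.67, 198.52, 714.8 and 1095.52 TPM in OGTi replicates 1 to 4 (log2 fold change 2.34 ± 0.47, edgeR adjusted p = 0.00734). Without replicate 4 its value was 1.74 (adjusted p = 0.0149). Zfp36, which encodes tristetraprolin, a protein that destabilises mRNAs including that of Ptgs2, rose from between 57.12 and 143.73 TPM in Control to between 179.09 and 468.84 TPM in OGTi (1.98 ± 0.20, adjusted p = 0.000335). Celf2, which encodes an RNA-binding protein that also acts on Ptgs2 mRNA, fell from between 16.64 and 17.48 TPM to between 4.03 and 7.24 TPM (-1.21 ± 0.21, adjusted p = 0.00338). The groups did not overlap for any of the 3, as for 11.5% of all genes tested in the upward and 12.0% in the downward direction.

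**Figure D4:**
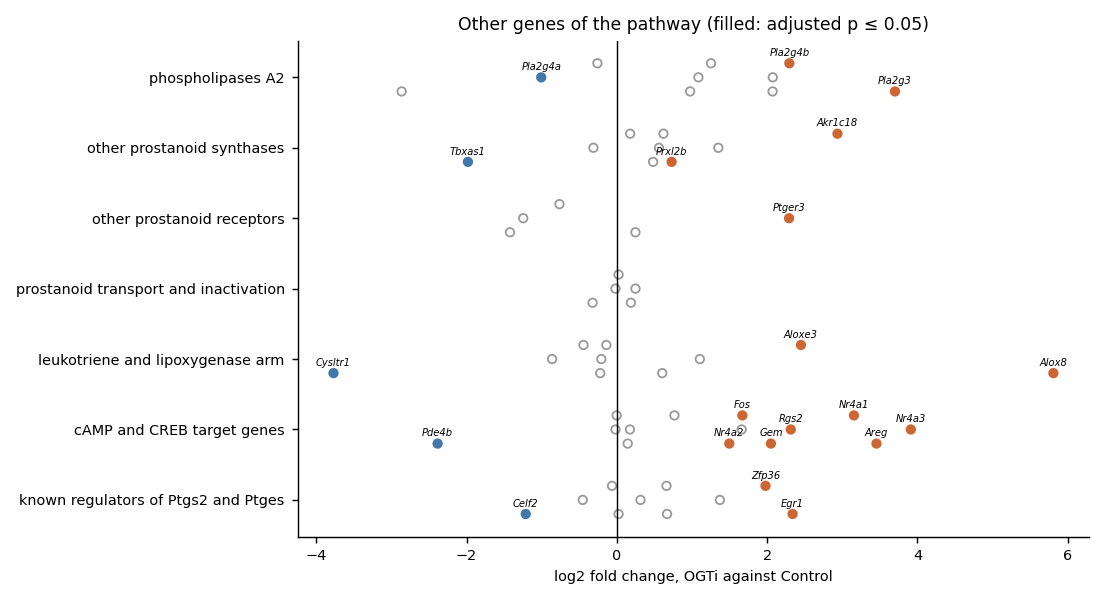
Log2 fold change of OGTi against Control for the 63 tested genes of the 7 pathway lists, 1 row per list, with filled and named points for the 21 genes that passed the test (orange higher, blue lower). Called genes are most numerous in the cAMP and CREB target list, with 7 higher and 1 lower of 14 tested. The lists were chosen with earlier results of these data known.

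Some of these genes are also made by macrophages and other liver cells, whose markers were therefore read in the same libraries. Of 12 macrophage markers, 5 were below 1 TPM in every library, and the sum over the list was 62.1 to 199 TPM in Control and 94.6 to 237 TPM in OGTi. Cd68 was called higher (1.5 ± 0.21, edgeR adjusted p = 0.00154) and Cd14 lower (-0.88 ± 0.27, adjusted p = 0.0455), and C1qa was at 0, 0, 5.57 and 1.67 TPM in Control replicates 1 to 4 and 0, 0.12, 2.1 and 0.91 TPM in OGTi replicates 1 to 4. Endothelial markers, with 9 of 10 below 1 TPM everywhere, summed to 1.57 to 3.29 TPM in Control and 0.37 to 1.02 TPM in OGTi, and Tek (-3.36) and Lyve1 (-3.17) were called lower. Hepatocyte markers summed to at most 0.65 TPM in Control and 1.77 TPM in OGTi, with Cyp2e1 called higher (3.98).

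The cholangiocyte list summed to 306.6 to 654.5 TPM in Control and 128.4 to 563.2 TPM in OGTi, with Sox9 called higher (3.03) and Krt19 lower (-0.66), and the mesothelial list, which shares Krt19, to 90.2 to 144.5 TPM and 48.3 to 87.5 TPM. In these lists, 3 of 7 cholangiocyte and 4 of 8 mesothelial markers were below 1 TPM in every library, so the sums rest on the remaining ones. Of the 13 stellate cell and myofibroblast markers, Pdgfrb (-1.68 ± 0.24, edgeR adjusted p = 0.00154) and Lrat (-1.78 ± 0.28, adjusted p = 0.00232) were called lower, 0 were called higher, and Acta2 had a log2 fold change of 0.05 (adjusted p = 0.915). Tek was at 1.59, 1.4, 0.99 and 0.56 TPM in Control replicates 1 to 4 and at most 0.23 TPM in OGTi, levels in Control that are of the size of those of Ptger4. The calls of Cd68, Sox9, Tek and Cyp2e1 were kept in all 13 alternatives, that of Cd14 in 9, that of Lyve1 in 8 and that of Krt19 in 6. The part of these cell types in the prostaglandin results was not tested.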

How the data were processed

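RNA was measured in 8 libraries, 4 per group, grouped by sample title. Per the submitters' processing notes and the study's methods, the authors aligned stranded, paired-end poly(A) reads to GRCm39/mm39 with Bowtie2 2.3.5.1 and quantified them by strand with RSEM 1.3.1. Their methods name GENCODE annotation, whereas the transcript identifiers are RefSeq. The deposited tables give expected counts and TPM per gene, and transcript length. A deposited comparison table with normalized counts, fold changes and p-values from DESeq2 1.36.0 was not used. The number of per-sample columns left unused was 0.

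Expected counts were rounded and fitted with edgeR 4.0.16 (R 4.3.3, TMM, quasi-likelihood) with the replicate number as a block, as in the study's methods. Genes with a total of at least 10 counts entered (19963 of 40840), with a biological coefficient of variation of 0.342. The SE is the log2 fold change divided by the root of F. Same-numbered libraries deviated together (correlations across genes of 0.160, 0.224, 0.105 and 0.318 for replicates 1 to 4, against -0.312 to 0.208 for other numbers), and the pairing comes from the study's methods. The script was tested on simulated data.

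All 10 members were named, with every called pathway gene and, beyond these, up to 2 uncalled genes of highest mean TPM per list. The members and lists were chosen with earlier results of these data known. The 13 alternatives were DESeq2 1.42.0 with the block, upper-quartile scaling, library totals alone, no filter, at least 10 counts in at least 4 libraries, no block, removal of the length trend, limma-trend (limma 3.58.1) on log2(TPM + 1) and log2(TPM + 0.1), and leaving out each replicate. Totals of 30068876 to 37372420 counts per library set a floor of 3 counts, 0.0803 to 0.0998 CPM. Reads carry no molecular identifiers, so this covers counting error only.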

Additional observations from a re-analysis of the deposited data

Results flagged for a closer look

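Of 18 groups of 4 libraries examined for a library far from the other 3, 2 stood out, where chance gives about 1 in 20 (0.9 of 18). Ptges in OGTi had 130.2 scaled counts in replicate 3 and between 54.7 and 63.2 in the others, so that the gap took up 0.888 of the whole range. The same library had the highest Ptges TPM of its group (1.47), and its control (221.9 scaled counts) was also the highest of the Control group. Ptger1 in OGTi had 209.9 scaled counts in replicate 2 and between 122.5 and 137.2 in the others, a gap of 0.831 of the range, and its control (138.1) was likewise the highest of its group.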

How the results depend on the processing

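The direction of Ptgs1, Ptges, Ptgis, Ptger1, Ptger2 and Ptger4 was kept under all 13 alternatives. With replicates left out in turn, the log2 fold change ranged from -1.24 to 0.036 for Ptgs2 (0.036 without replicate 1), from -0.78 to 0.21 for Ptgfr and from -2.28 to 0.74 for Hpgd (0.21 and 0.74 without replicate 3, Ptgfr holding too few counts to be tested without replicate 4), and that of Ptger4 from 1.67 to 3.06. In these fits, which hold 6 libraries each, the number of members called higher ranged from 0 to 1, with 0 without replicate 3 and without replicate 4, and that of all genes called from 1905 (without replicate 3) and 1956 (without replicate 4) to 3124, against 3666 with all pairs. Limma-trend on log2(TPM + 1) and on log2(TPM + 0.1) called 0 members higher and 1 lower (Ptgs1), and library totals alone called 1 lower (Ptges). The cause was not tested. Without the replicate block, 2991 genes were called over all genes, 1 member higher and 0 lower, and 19 pathway genes in place of 21. Leaving out replicates gave 17 to 20 pathway genes. DESeq2 with the block called 4859 genes, and 1 member higher. The share of higher genes among those called was 44.3%, and 54.2% with upper-quartile scaling, 30.1% with library totals alone and 25.7% and 26.2% with limma-trend, settings that put the median over all genes at 0.13, -0.19, -0.10 and -0.23 (log2), respectively. Depth limits what can be said of Ptgds, Ptgfr and Hpgd.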
